A study of Mus musculus with 6 samples.

Results

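The machinery that releases insulin granules was examined through 9 genes chosen by name, out of 53801 mouse genes listed in the processed values. They encode the SNARE proteins SNAP-25, syntaxin-1A and VAMP2 (*Snap25*, *Stx1a*, *Vamp2*), the calcium sensor synaptotagmin-7 (*Syt7*), the granule GTPases Rab3A and Rab27A (*Rab3a*, *Rab27a*), the Rab27 effector granuphilin (*Sytl4*), the priming factor Munc13-1 (*Unc13a*) and the SNARE-binding protein complexin-1 (*Cplx1*). Identifiers were matched through GENCODE M21, and all 9 genes were expressed above the filter on low values in MIN6 cells.

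Messenger RNA was sequenced from 6 clonal lines of MIN6, a mouse insulinoma line that makes and secretes insulin. The parent MIN6 cells of both groups expressed Cas9, received a guide RNA against *Snd1* by lentivirus and were selected with puromycin. In the 3 control clones the guide was directed to intron 2 of *Snd1*, and in the 3 *Snd1* KO clones to exon 2. Each clone grew from a single cell, was chosen after a screen for SND1 protein and gave 1 library, so clones are the replicates, and the differences between clones of a group are the error of each comparison. *Snd1* encodes a coregulator of transcription, and insulin secretion was among the questions of the study.

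In the β cell, insulin granules are carried to the plasma membrane, docked, primed and held until calcium enters. VAMP2 on the granule and syntaxin-1A with SNAP-25 on the plasma membrane zip into a SNARE complex that brings the membranes together, and synaptotagmins couple this step to calcium. Rab3A and Rab27A on the granule recruit effectors such as granuphilin, which binds syntaxin-1A and docks granules, while Munc13-1 opens syntaxin-1A for assembly and complexins clamp or promote fusion.

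The values are TPM per gene, a read count scaled by gene length and by the library total. Reads recovered from the steps in the TPM values numbered 23700630 to 30454383 per clone. These totals exceed the approximate number of reads per library that the study reported, and the reason was not tested. Whether each is a read or a read pair was not given in the sources used here, and counting errors below take each as independent. Of the values from 1 to 20 reads 60.02% were odd, so not all came in twos, but this does not show that reads are independent. The targeted gene *Snd1* was measured at 113, 119 and 112 TPM in control clones 1 to 3 and at 14.7, 57.1 and 19.9 TPM in *Snd1* KO clones 1 to 3, with no overlap. The log2 fold change of *Snd1* was -2.11 (SE 0.45), and its adjusted p over all genes was 0.511 by limma. Without *Snd1* KO 2, the clone with the most *Snd1* of its group, the log2 fold change was -2.67 and the adjusted p 0.0402 by limma, whereas without any 1 of the other 5 clones the adjusted p was 0.206 to 0.986. Markers of β cells were present, with 12 of 12 at a mean of at least 1 TPM (*Ucn3* through *Snd1* KO 1 alone, at 41.6 TPM against at most 0.68 TPM elsewhere) and summed levels of 47494 to 81245 TPM in control clones against 51942 to 88747 TPM in *Snd1* KO clones. Of these 12, *Slc30a8* and *Ucn3* were higher in every *Snd1* KO clone. Of 8 markers of other islet cells only *Gcg* reached a mean of 1 TPM over the clones, at 1100 TPM in *Snd1* KO 1 against 55.2 to 314 TPM in the other clones. *Sst* was at 2.42 TPM in *Snd1* KO 1 and at most 0.51 TPM elsewhere, and *Hhex* was at 0 throughout. The summed level of the 8 was 175 to 314 TPM in control clones against 55.9 to 1103 TPM in *Snd1* KO clones. Of 9 exocrine and stromal markers 0 reached a mean of 1 TPM, their sum was at most 2.55 TPM, and *Prss1* and *Cpa1* were at 0. Clones of a group also stood apart from each other. On the first principal component, which held 40.3% of the variance, control clones 1 and 2 lay at 30.3 and 33.0, whereas control clone 3 lay at -12.9, on the side of *Snd1* KO 2 (-35.1) and *Snd1* KO 3 (-18.1), and *Snd1* KO 1 lay between at 2.74.

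Among transcripts of the release machinery, *Sytl4* was at 165% of control and *Unc13a* at 78.3% of control in *Snd1* KO clones. Of the 9 genes, 0 reached both an adjusted p under 0.05 and a 2-fold change by limma. Of the 17823 genes tested 0.00561% did, and *Snd1* itself did not, so this count says nothing particular about the 9. An unadjusted p under 0.05 was reached by 2 of 9 genes, against 7.96% of all genes tested. These were *Sytl4*, higher in *Snd1* KO as were 5.63% of all genes at this p, and *Unc13a*, lower as were 2.33%. *Sytl4* and *Vamp2* exceeded all control clones in every *Snd1* KO clone, as did 9.69% of all genes, and *Unc13a* was lower in every one, as were 4.03%. The median log2 fold change over the 9 genes was 0.04, as it was over all genes tested, with 5 genes above 0 and 4 below. By voom on the recovered reads 0 of 9 genes passed the threshold as well. At an unadjusted p under 0.05 there were 2 of 9 by voom, against 8.71% of all genes. Without control clone 3, 3 of 9 genes were lower in every *Snd1* KO clone (*Unc13a*, *Rab3a* and *Snap25*), against 17.9% of all genes in the same fit, and without *Snd1* KO 3 there were also 3 (*Unc13a*, *Rab3a* and *Stx1a*), against 7.53%. At an unadjusted p under 0.05 there was 1 of 9 without control clone 1, control clone 2, *Snd1* KO 2 or *Snd1* KO 3, where 4.28 to 6.36% of all genes were at this p. There were 3 of 9 without control clone 3 (all genes 13.9%) or *Snd1* KO 1 (all genes 14.3%).

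**Figure D1:**
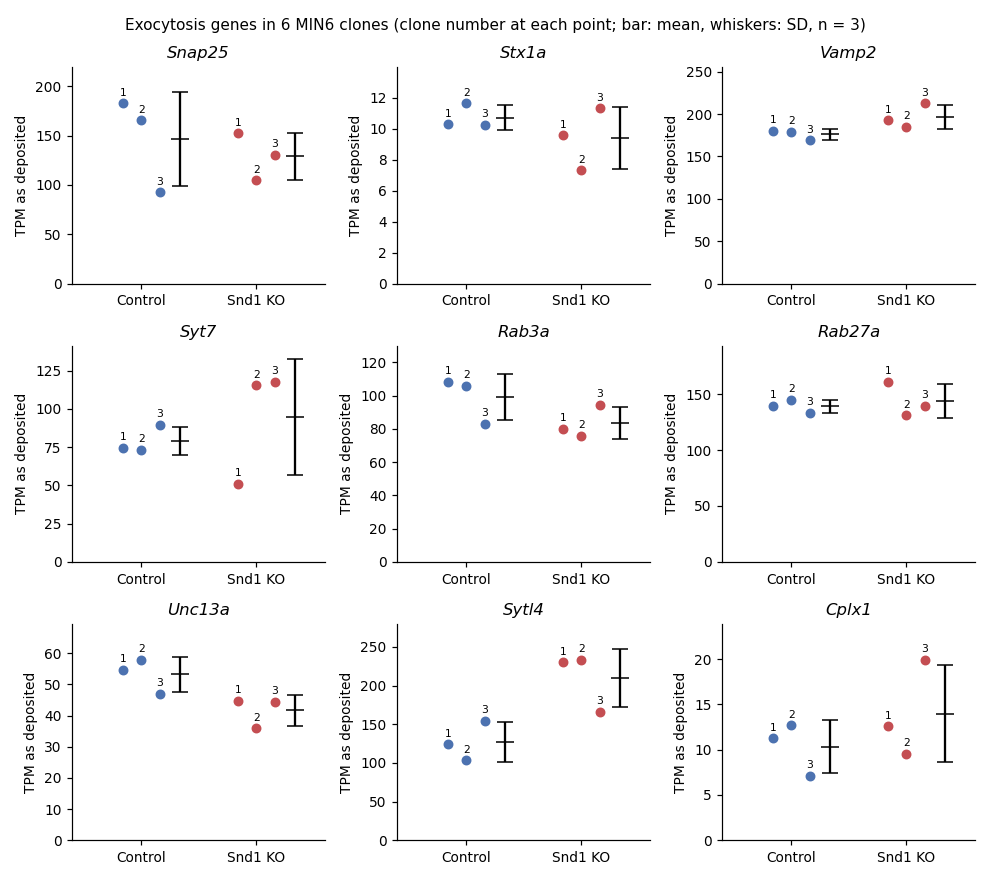
Level of each exocytosis gene in TPM (vertical axes, from 0) in the 3 control (blue) and 3 Snd1 KO (red) MIN6 clones, with the clone number at each point, the group mean as a bar and the SD as whiskers. Only Sytl4, Vamp2 and Unc13a have groups that do not overlap, and control clone 3 sits apart from the other control clones for Snap25 and Cplx1.

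Transcripts compare between genes only per length, so the order of levels was taken from a TPM rebuilt so that overlapping exons counted each base 1 time. Over all 6 clones *Sytl4* had the highest mean of the 9 on this scale (251 TPM, range 153 to 346), followed by *Rab27a* (206), *Rab3a* (190.2), *Vamp2* (177), *Syt7* (155) and *Snap25* (109). Neighbours in this order overlapped in their ranges over clones. The place of *Sytl4* rested on the *Snd1* KO clones, at 314 ± 56.1 TPM (SD, n = 3), since in control clones alone its mean of 189 ± 38.9 TPM was below those of *Rab3a* (206 ± 28.1) and *Rab27a* (202 ± 7.92). *Unc13a* followed at 56.5 TPM (range 42.8 to 68.7), separated from the genes on either side. *Stx1a* at 20.8 TPM and *Cplx1* at 9.78 TPM were the least abundant, and their ranges overlapped. By deposited TPM, in which exon lengths are summed over transcripts, *Vamp2* came first and *Cplx1* stood above *Stx1a*. The length behind the deposited *Syt7* values differs from the summed M21 exons, so the place of *Syt7* rests on the M21 exons.

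Granuphilin, the product of *Sytl4* (chrX:133936385-133981812, minus strand, GRCm38), binds Rab27A and syntaxin-1A and holds granules at the plasma membrane. *Sytl4* was measured at 124, 103 and 154 TPM in control clones 1 to 3 and at 230.2, 233 and 166 TPM in *Snd1* KO clones 1 to 3. Every *Snd1* KO clone lay above every control clone, but control clone 3 and *Snd1* KO 3 were near each other. The control mean was 127 ± 25.7 TPM and the *Snd1* KO mean 209.8 ± 37.7 TPM (SD, n = 3 each), 165% of control. The log2 fold change was 0.72 (SE 0.20, 95% interval 0.25 to 1.19), with an unadjusted p of 0.00883 and an adjusted p of 0.568 by limma. The exact two-sided permutation test gave p = 0.1, the smallest that 3 against 3 clones allow. Leaving out 1 clone at a time gave log2 fold changes of 0.58 to 0.88. When clones were weighted by their quality in limma, the adjusted p of *Sytl4* was 0.0399 at a log2 fold change of 0.64, still under 2-fold, and 12.1% of all genes had an adjusted p under 0.05 in that fit. With median ratio scaling, the groups of *Sytl4* and of *Vamp2* overlapped. In these bulk samples, fewer cells of a type and less RNA per cell cannot be told apart.

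Munc13-1, the product of *Unc13a* (chr8:71624417-71671757, minus strand, GRCm38), readies syntaxin-1A for SNARE assembly. *Unc13a* was measured at 54.7, 57.8 and 47.1 TPM in the control clones and at 44.8, 35.9 and 44.3 TPM in *Snd1* KO clones. All *Snd1* KO clones lay below all control clones, with *Snd1* KO 2 the lowest and a small gap between control clone 3 and *Snd1* KO 1. The control mean was 53.2 ± 5.53 TPM and the *Snd1* KO mean 41.7 ± 4.97 TPM (SD, n = 3 each), 78.3% of control. Its log2 fold change was -0.35 (SE 0.14, 95% interval -0.67 to -0.02), with an unadjusted p of 0.0397 and an adjusted p of 0.607 by limma. With clone quality weights the adjusted p was 0.0427 at a log2 fold change of -0.37. When insulin and mitochondrial genes were left out of the total, the groups of *Unc13a* overlapped.

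The promoter windows of *Sytl4* and *Unc13a* are shown because these 2 genes had the lowest p among the 9 and differed in opposite directions. Each window runs from 250 bases before to 50 bases after the RefSeq start (GRCm38.p6), on the strand of the gene. Capitals mark partial CRE sites, TGACG on either strand, and GC boxes, GGGCGG on either strand.
Sytl4, chrX:133981763-133982062, minus strand: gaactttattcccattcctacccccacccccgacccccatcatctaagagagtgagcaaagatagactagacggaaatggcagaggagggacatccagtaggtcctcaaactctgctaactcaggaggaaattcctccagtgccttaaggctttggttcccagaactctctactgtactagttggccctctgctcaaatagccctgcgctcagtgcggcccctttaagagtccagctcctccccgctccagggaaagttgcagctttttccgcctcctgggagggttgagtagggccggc
Unc13a, chr8:71671708-71672007, minus strand: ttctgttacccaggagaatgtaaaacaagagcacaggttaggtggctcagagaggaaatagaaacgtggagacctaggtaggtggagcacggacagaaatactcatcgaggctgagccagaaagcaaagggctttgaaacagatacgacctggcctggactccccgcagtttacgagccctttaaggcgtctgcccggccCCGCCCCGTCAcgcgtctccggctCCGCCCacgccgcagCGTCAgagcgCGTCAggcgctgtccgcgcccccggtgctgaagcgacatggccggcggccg

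The *Unc13a* window holds 27 CpG and 61.3% G and C, and the *Sytl4* window 7 CpG and 54.7%, where the medians over 32851 windows are 7 CpG and 52.7%. In the *Unc13a* window 3 partial CRE sites and 2 GC boxes were found, near the start of the gene. A partial CRE site occurs in 20.8% of all windows and a GC box in 35.7%, and 1.035% of windows hold at least 3 partial sites. The *Sytl4* window holds neither, nor a full CRE (TGACGTCA, 1.79% of windows), an E box (CANNTG, 72.3%), TATAAA (13.6%) or TAAT (58.0%). Of the 9 genes 6 had a window in the table. These are matches of letters and say nothing of binding.

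**Figure D2:**
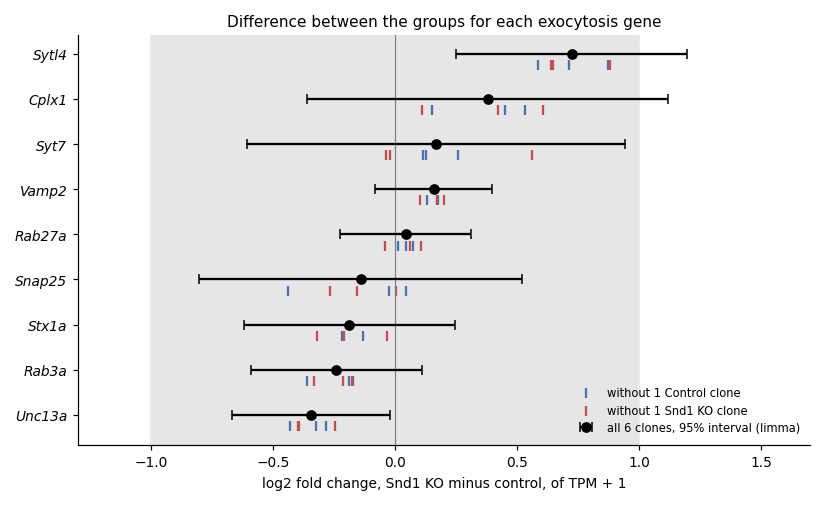
Log2 fold change of TPM + 1, Snd1 KO minus control (horizontal axis), for each exocytosis gene, with the limma 95% interval from all 6 clones (black) and the values with 1 control (blue ticks) or 1 Snd1 KO clone (red ticks) left out. Shading marks changes under 2-fold. The intervals of Sytl4 (0.25 to 1.19) and Cplx1 (-0.36 to 1.12) reach past it.

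Among the SNARE genes, *Vamp2* (chr11:69088490-69092384), which encodes the granule SNARE, varied least. *Vamp2* was measured at 180.5, 179 and 169 TPM in the control clones and at 193, 185 and 213 TPM in *Snd1* KO clones. The groups did not overlap, but the distance was small, with a *Snd1* KO mean at 112% of control. Its log2 fold change was 0.16 (SE 0.10, 95% interval -0.08 to 0.40), adjusted p 0.695 by limma.

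The plasma membrane SNARE gene *Snap25* (chr2:136713453-136782428) was measured at 182, 165 and 92.6 TPM in the control clones and at 152, 105 and 131 TPM in *Snd1* KO clones. The groups overlapped, and the lowest clone of all was control clone 3. The log2 fold change was -0.14 (SE 0.28, 95% interval -0.80 to 0.52), adjusted p 0.912 by limma, and it was 0.044 without control clone 1 and 0.0015 without *Snd1* KO 2. *Stx1a* (chr5:135023482-135051100), which encodes the syntaxin partner of SNAP-25, was measured at 10.3, 11.6 and 10.2 TPM in the control clones and at 9.57, 7.30 and 11.3 TPM in *Snd1* KO clones. *Stx1a* overlapped between the groups, with *Snd1* KO 2 the lowest, and its log2 fold change was -0.19 (SE 0.18, 95% interval -0.62 to 0.25), adjusted p 0.792 by limma. Leaving out *Snd1* KO 2 gave -0.035, and leaving out *Snd1* KO 3 gave -0.32.

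The calcium sensor *Syt7* (chr19:10389090-10453180) differed more among the *Snd1* KO clones than between the groups. It was measured at 74.5, 73.1 and 89.6 TPM in the control clones and at 50.9, 115 and 118 TPM in *Snd1* KO clones. *Snd1* KO 1 was the lowest of all clones and *Snd1* KO 2 and 3 were the highest, so that the coefficient of variation was 11.6% in control and 40.1% in *Snd1* KO clones. Its log2 fold change was 0.17 (SE 0.32, 95% interval -0.61 to 0.94), adjusted p 0.911 by limma, and it was -0.024 without *Snd1* KO 2, -0.038 without *Snd1* KO 3 and 0.56 without *Snd1* KO 1.

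The granule GTPase gene *Rab3a* (chr8:70754679-70758677) was measured at 108, 106 and 83.1 TPM in the control clones and at 79.9, 76.0 and 94.5 TPM in *Snd1* KO clones. Control clone 3 lay among the *Snd1* KO clones, and the log2 fold change was -0.24 (SE 0.15, 95% interval -0.59 to 0.11), adjusted p 0.686 by limma. *Rab27a* (chr9:73044854-73097629), whose product recruits granuphilin, was measured at 139.6, 145 and 133 TPM in the control clones and at 161, 131 and 139.7 TPM in *Snd1* KO clones. *Rab27a* overlapped between the groups, with a log2 fold change of 0.04 (SE 0.11, 95% interval -0.23 to 0.31), adjusted p 0.94 by limma. The interval for *Rab27a* leaves out changes of 2-fold in either direction, as do those of 7 of the 9 genes and of 66.6% of all genes tested.

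*Cplx1* (chr5:108518554-108550024), which encodes complexin-1, was measured at 11.2, 12.7 and 7.09 TPM in the control clones and at 12.6, 9.51 and 19.9 TPM in *Snd1* KO clones. The groups overlapped, and *Snd1* KO 3 was the highest. Its log2 fold change was 0.38 (SE 0.31, 95% interval -0.36 to 1.12), adjusted p 0.758 by limma, and it was 0.11 without *Snd1* KO 3, 0.15 without control clone 3 and 0.60 without *Snd1* KO 2. *Cplx1* had the fewest reads of the 9 genes, 92 in control clone 3, which carries a counting error of 10.4%. At their lowest clone *Stx1a* had 299 reads, with a counting error of 5.78%, and each of the other 7 genes had at least 2612 reads, with at most 1.96%.

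Most of these proteins belong to families whose members can share a task, so the share of each gene in its family was computed from TPM with each exonic base counted once. *Rab27a* made up at least 99.96% of *Rab27a* and *Rab27b* in every clone. *Unc13a* held 88.8 ± 0.898% of the *Unc13* family in control and 84.3 ± 2.77% in *Snd1* KO clones (SD, n = 3), and its range over clones did not overlap between the groups. The remainder was mostly *Unc13b*, at 10.01 ± 0.608% and 13.9 ± 2.58%. The exact permutation test of the *Unc13a* share gave p = 0.1, the smallest possible, and 0.675 after Benjamini-Hochberg adjustment over the 9 families, the same value as 7 other families (1 for *Rab27a*).

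*Snap25* held 78.1 ± 1.97% of *Snap25* and *Snap23* in control and 77.2 ± 1.81% in *Snd1* KO clones. *Vamp2* held 56.3 ± 4.39% and 59.7 ± 4.53%, with *Vamp3* as most of the rest. These SNARE shares overlapped between the groups. *Stx1a* was a minor plasma membrane syntaxin transcript, at 19.96 ± 1.37% and 17.5 ± 4.76%, where *Stx4a* held 35.6 ± 3.66% and 35.9 ± 4.28%. *Cplx1* was likewise minor, at 2.91 ± 0.988% and 3.67 ± 1.497% of the complexins, with *Cplx2* at 97.1 ± 0.975% and 96.3 ± 1.51%.

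*Sytl4* held 74.0 ± 9.34% of the synaptotagmin-like genes in control and 84.5 ± 7.75% in *Snd1* KO clones. Nearly all of the rest was *Sytl5*, at 29.6, 32.8 and 15.0% in control clones 1 to 3 against 22.6, 7.33 and 15.6% in *Snd1* KO clones 1 to 3. The *Sytl4* share overlapped between the groups, since control clone 3 had 84.6%. *Rab3a* held 57.4 ± 6.495% and 53.6 ± 6.58% of the *Rab3* genes, with *Rab3d* second by group mean. In *Snd1* KO 1 *Rab3d* came first, at 50.4% against 46.1% for *Rab3a*. The 4 synaptotagmin genes compared were *Syt7*, *Syt9*, *Syt5* and *Syt4*. *Syt7* held 24.7, 24.4 and 35.6% of their sum in control clones 1 to 3. It held 13.2, 50.9 and 38.5% in *Snd1* KO clones 1 to 3. *Syt4* had the largest mean share, at 39.4 ± 2.61% in control and 44.4 ± 13.0% in *Snd1* KO clones. *Syt5*, which encodes another granule synaptotagmin, was at 159, 144 and 108 TPM in the control clones and at 213, 39.1 and 60.0 TPM in *Snd1* KO clones, so the clone with the least *Syt7*, *Snd1* KO 1, had the most *Syt5*. Its log2 fold change was -0.76 (SE 0.58, adjusted p 0.751 by limma).

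**Figure D3:**
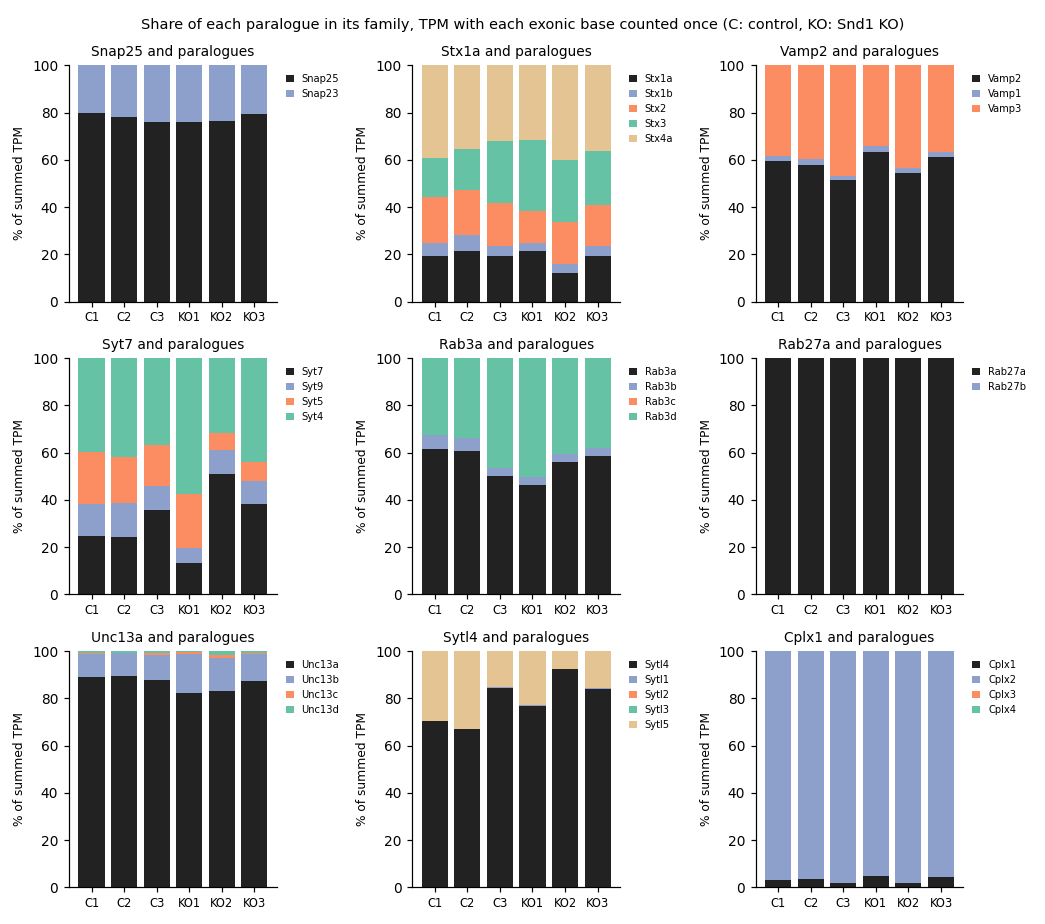
Share of each gene in the summed TPM of its family, with each exonic base counted once (vertical axes, %), in control clones 1 to 3 (C1 to C3) and Snd1 KO clones 1 to 3 (KO1 to KO3). The gene examined is black at the bottom of each bar. Rab27a, Unc13a, Snap25, Sytl4 and Vamp2 held most of their families in every clone, Cplx1 at most 4.71%, and the Syt7 share ran from 13.2 to 50.9%.

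The remaining genes of the pathway were taken from a list of 89 by role, of which 72 passed the filter. By limma, 0 of 72 passed the threshold, and 4 of 72 (5.56%) had an unadjusted p under 0.05, against 7.96% of all genes tested. In every *Snd1* KO clone 4 of 72 were higher (5.56%, against 9.69%) and 3 of 72 lower (4.17%, against 4.03%). The median log2 fold change of these 72 was 0.01. At an unadjusted p under 0.05 there were 14 of 73 without control clone 3 (19.2%, against 13.9% of all genes in that fit) and 7 of 73 without *Snd1* KO 1 (9.59%, against 14.3%). There was 1 without control clone 1 or *Snd1* KO 3 and 0 without control clone 2 or *Snd1* KO 2, where 4.28 to 6.36% of all genes were at this p by limma. With clone quality weights, 2 of 72 passed the threshold, *Syt5* and *Mlph*, where 5.02% of all genes did. *Mlph*, which encodes the Rab27 effector melanophilin, was at 1.22, 0.797 and 3.71 TPM in the control clones and at 2.46, 4.80 and 7.66 TPM in *Snd1* KO clones, and was picked out after its values were seen.

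Higher in every *Snd1* KO clone were the active zone scaffold genes *Rims3* (log2 fold change 0.40, SE 0.14, adjusted p 0.594 by limma) and *Rimbp2* (0.25, SE 0.11, adjusted p 0.607), and the Sec1/Munc18 genes *Stxbp3* (0.37, SE 0.14, adjusted p 0.594) and *Stxbp2* (0.24, SE 0.13, adjusted p 0.647). *Rims3* was at 14.3, 14.8 and 14.8 TPM in the control clones and at 22.1, 20.6 and 16.4 TPM in *Snd1* KO clones. Lower in every one were *Rab3il1*, which encodes an exchange factor for Rab3A (-0.61, SE 0.26, adjusted p 0.607), the synaptotagmin gene *Syt3* (-0.19, SE 0.12, adjusted p 0.701) and the exocyst gene *Exoc7* (-0.14, SE 0.10, adjusted p 0.711). The value for *Rab3il1* was -0.92 with a pseudocount of 0.1 TPM and -0.99 by voom. *Rab3il1* was low, at 2.43, 3.13 and 1.62 TPM in the control clones and at 0.962, 1.11 and 1.51 TPM in *Snd1* KO clones. *Rab3b*, a GTPase gene of the *Rab3* family, had an unadjusted p of 0.0334 by limma (-0.61, SE 0.23, adjusted p 0.605), with groups that overlapped.

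By role, the 12 other SNARE genes had a median log2 fold change of 0.02 and the 11 Sec1/Munc18, disassembly and SNARE-binding genes -0.05. The 11 other synaptotagmins and calcium sensors had -0.01, the 13 other Rab genes and effectors -0.03, and the 9 exocyst genes -0.01. The 12 active zone scaffold genes had 0.12 and the 3 other priming factors 0.14. In the plot by role, *Sytl4* lay below *Mlph* (1.07) alone among the Rab genes and effectors, and *Unc13a* was the lowest of the 4 priming factors. A pair of genes were high in 1 clone alone, and were picked out after their values were seen. *Doc2b*, a calcium sensor, was at 13.3 TPM in *Snd1* KO 1 and at most 1.02 TPM elsewhere, and *Rims4* was at 4.73 TPM in *Snd1* KO 3 and at most 0.0811 TPM elsewhere.

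**Figure D4:**
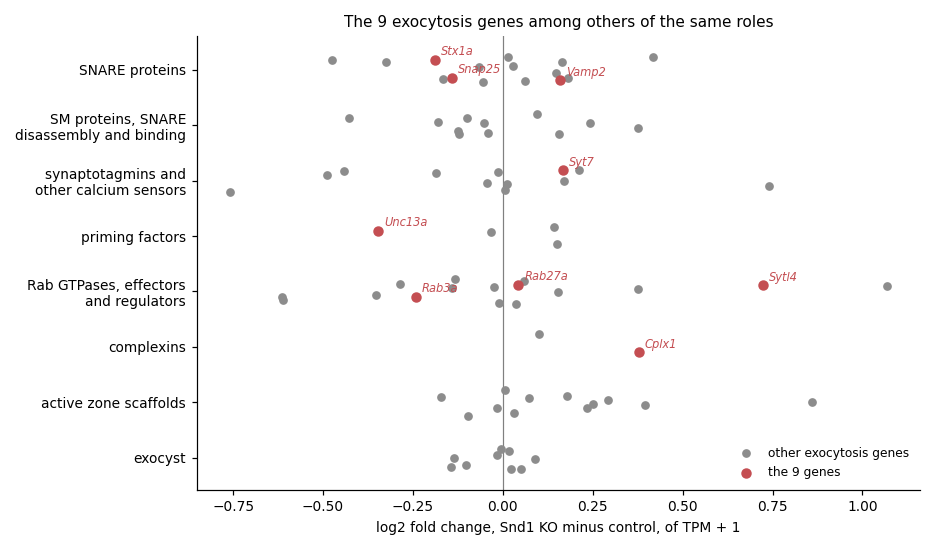
Log2 fold change of TPM + 1, Snd1 KO minus control (horizontal axis), for the 9 exocytosis genes (red, named) and the 72 other exocytosis genes tested (grey), by role of the protein (rows). Each point is 1 gene. Most points lie near 0, with Sytl4 at 0.72 to the right and Unc13a at -0.35 to the left.

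Of the 89 listed genes 17 were under the filter. They include the paralogues *Rab27b*, at most 0.0988 TPM or 8 reads in a clone, *Rab3c*, at most 0.168 TPM or 15 reads, and *Cplx3* and *Cplx4*, at most 1 read each. *Unc13c*, *Unc13d*, *Sytl1*, *Sytl2* and *Sytl3* were also under it, with at most 0.553 TPM.

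Over the 6 clones, which share libraries, depth and clone origin, pairs of these genes moved together or apart as a description only. Pearson's r of log2(TPM + 1) was -0.90 for *Unc13a* with *Sytl4* and for *Rab3a* with *Sytl4*, 0.90 for *Vamp2* with *Cplx1* and 0.87 for *Rab3a* with *Unc13a*. The gene most like each in pattern, of 11356 compared, was *Fuz* for *Sytl4* (r = 0.995), *Nfasc* for *Unc13a* (0.995), *Sprtn* for *Vamp2* (0.978), *Daam1* for *Snap25* (0.999) and *Tnfaip8l1* for *Stx1a* (0.987). It was *Stat5a* for *Syt7* (0.997), *Rnf112* for *Rab3a* (0.995), *Gm14403* for *Rab27a* (0.997) and *Zmiz1* for *Cplx1* (0.998). The number of genes with an r of at least 0.95 ran from 8 for *Stx1a*, 12 for *Vamp2* and 17 for *Cplx1* to 258 for *Snap25*.

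Exocytosis genes are shared with neurons, and markers of neurons were present. Of 10 neuronal markers 8 reached a mean of 1 TPM, with summed levels of 778 to 925 TPM in control clones against 987 to 1153 TPM in *Snd1* KO clones, and *Rbfox3* was at most 0.485 TPM. The summed levels did not overlap, but without the neurofilament gene *Nefm* they did, at 546 to 783 TPM in control clones against 621 to 853 TPM in *Snd1* KO clones. Of the 10 markers 2 were higher in every *Snd1* KO clone, *Nefm* and *Snhg11*, the latter at most 0.738 TPM. The part of these markers in the level of *Sytl4*, *Vamp2* and *Unc13a* was not tested.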

How the data were processed

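RNA with integrity numbers of at least 7 was made into Nextera XT libraries and sequenced as paired 100-base reads. Submitters' processing notes name FastQC, Trimmomatic, HISAT2, HTSeq, DESeq2 and mm10, and the annotation was not given in the sources used here. The authors deposited TPM per gene, 1 table per clone, summing to 1000000. Spike-ins (92 ERCC and 7 SIRV) were left out, and 53706 genes matched GENCODE M21.

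Reads were recovered from TPM by exon length. With M21 exon lengths summed over transcripts, 91.7% of 14851 genes gave whole reads in every clone (tolerance 0.01), and for the rest, *Syt7* included, a length was sought that gives whole reads. Since lengths were summed, levels between genes were recomputed with each exonic base counted once. Counting errors cover counting only.

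Groups were compared by limma 3.58.1 (lmFit, eBayes with trend, R 4.3.3) on log2(TPM + 1) for the 17823 genes averaging 0.5 TPM or more, with Benjamini-Hochberg adjustment, an adjusted p under 0.05 and at least 2-fold. Fold changes on this scale understate those of low genes. Single values had exact two-sided permutation tests (scipy 1.17.1). Scripts were tested on simulated data. Clone numbers were not used to pair the samples in the main fit. The genes and lists were chosen with earlier results of these data known. Named genes are the 9, their paralogues, listed genes past the threshold or the largest (up to 5 each way) without overlap, the most correlated gene of each and *Snd1*. Alternatives were pseudocount, filter, scaling, gene length, voom on recovered reads, clone weights, trend, replicate block and leaving out each clone. Protein sequences were not used here.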

Additional observations from a re-analysis of the deposited data

How the results depend on the processing

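Of 487 recomputed values over 34 results, 454 stayed on the same side of the threshold with the same direction, or, for counts, within 1.5 times and, for medians and family shares, within 1 SD between clones. Of these medians and shares 15 changed sign, 11 medians near 0 and 4 differences in family share (among them *Syt7*, from 5.91 to -2.44 percentage points without *Snd1* KO 2). Of the exocytosis genes, 0 of 9 passed the threshold under any alternative or with any clone left out. Of all genes 0.00561% passed it in the main fit and 5.02% with clone quality weights, so this says nothing particular about the 9. The log2 fold change of *Rab27a* turned from 0.04 to -0.00026 with median ratio scaling and to -0.025 with clone quality weights. Leaving out 1 clone at a time gave -0.040 to 0.11 for *Rab27a*, -0.44 to 0.044 for *Snap25* (0.0015 without *Snd1* KO 2) and -0.038 to 0.56 for *Syt7* (-0.024 without *Snd1* KO 2). The number of the 9 genes higher in every *Snd1* KO clone, 2, was 0 with median ratio scaling and 1 with voom on recovered reads (all genes 7.81 and 8.83%). The number lower in every one, 1, was 0 without insulin and mitochondrial genes (all genes 2.46%). It was 1 to 3 when 1 clone was left out (all genes 5.24 to 17.9%). At an unadjusted p under 0.05 there were 2 of 9 genes. There was 1 without insulin and mitochondrial genes (all genes 8.77%) and 1 with no mean-variance trend (all genes 7.91%). There were 5 with clone quality weights (all genes 32.6%) and 1 to 3 with a clone left out (all genes 4.28 to 14.3%). For the wider list this count, 4 of 72, was 7 with median ratio scaling (9.72%, all genes 8.29%), 7 with voom (all genes 8.71%), 25 with clone quality weights (34.7%, all genes 32.6%) and 0 to 14 with a clone left out, and 2 of 72 passed the threshold with clone quality weights. The weights were lowest for control clone 3 (0.279) and *Snd1* KO 1 (0.286) and highest for *Snd1* KO 3 (3.91). The cause of these changes was not tested.

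Clones with the same number did not deviate together (correlations of 0.05, -0.12 and -0.07), and the main fit did not pair them. The labels name no shared batch, and these correlations cannot tell whether clones of the same number were handled together. With a replicate block by clone number, 1 of 9 genes and 2 of 72 had an unadjusted p under 0.05 (all genes 6.70%). Counting error at the lowest clone was at most 1.96% for 7 of the 9 genes, 5.78% for *Stx1a* and 10.4% for *Cplx1*. Taking each read as independent, each was below the coefficient of variation between clones of either group. For *Stx1a* the margin was small, with 7.40% in control clones, and it depends on that assumption.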
